A study of Drosophila melanogaster with 2 samples.

Results

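The loci mod(mdg4) and lola were examined for occupancy by the product of CG15812, a BTB domain factor, in whole embryos of Drosophila melanogaster. Both genes were taken by name, and every summit inside the gene body or within 1 kb of an annotated 5′ end was kept. They are 2 of 13921 protein-coding loci, once the separate annotation entries for their trans-splicing precursors are counted with their gene. Chromatin immunoprecipitation and sequencing (ChIP-seq) had been done on embryos of both sexes, aged 0 to 24 h, of the strain CG15812-GFP, a transgenic line that stably carries a C-terminal green fluorescent protein fusion of CG15812. The 2 samples are biological replicates 1 and 2 of 1 group. There is no second condition, so the comparisons run between summits, between the replicates and between these loci and the other loci.

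Several limits come from the labels. They call the factor pfk, which differs only in case from Pfk, the annotation's symbol for phosphofructokinase, so CG15812 is used here. Their free text also describes each sample as an input control. The assay title and antibody entry, and a control named apart from these samples, are those of immunoprecipitated material, and the samples were used as such. Whole embryos mix all tissues and all embryonic stages, so a summit cannot be placed in a cell type.

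The authors deposited 4 lists of regions. A relaxed list of 30000 regions exists for each replicate and for both replicates pooled, and it includes background. The fourth list, called the IDR list here, holds the 2886 regions that passed the authors' irreproducible discovery rate step. All 2886 were also the pooled regions with the highest signal, from 128 upwards, with a median of 202. Signal is the authors' score of a region, and its normalization is not known, so its values were compared within a list. Between the 2 replicates they are given as values, ranks and log2 ratios, read against the same ratios over all IDR peaks. Read depth is unknown.

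Mod(mdg4) and lola are textbook cases of one gene that makes many BTB proteins. In both, a shared 5′ part encodes the BTB domain, through which these proteins pair, and alternative 3′ exons add different C-terminal ends, most of them with a zinc finger. Some 3′ ends are joined by trans-splicing, in which a separate precursor RNA from inside the locus, in mod(mdg4) from either strand, is spliced to the shared part. A protein of mod(mdg4) is part of the gypsy insulator together with Su(Hw), and other products act in chromatin and meiosis. Lola proteins are zinc finger regulators known for axon growth and guidance.

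At mod(mdg4), CG15812-GFP had 3 IDR summits. The highest and the lowest of them lay 18 bp and 9 bp from 5′ ends of trans-splicing precursors. They were 3808 bp and 11922 bp downstream of the common 5′ end. The third lay in an intron 908 bp downstream of the common 5′ end, which itself had no IDR summit. At lola there was 1 IDR summit, 26 bp downstream of the 5′ end used by 11 of its 24 transcripts. In the relaxed pooled list, lower summits lay within 200 bp of the other 3 annotated 5′ ends of its main entry, and none that close to the 5′ end of its precursor.

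The gene mod(mdg4) (FBgn0002781) occupies 3R:21350846-21377401 on the minus strand, 26.6 kb in the Ensembl annotation, in dm6 coordinates. Its 22 transcripts all begin at 21377401 and share 4 common exons, defined as exons used by at least 50% of the transcripts of the main entry. Together these make up 5.14% of the locus, and 28 alternative exons make up 41.7%. The annotation adds 23 precursor entries, 14 on the minus strand and 9 on the plus strand, with 48 transcripts. Exons that only precursors use cover 34.8% of the locus, and 18.4% is intron in every entry. The precursors begin at 7 positions, so the locus has 8 annotated 5′ ends. In the RefSeq annotation of the same assembly, all 48 precursor RNAs are marked as incomplete at the 5′ end. These positions are therefore annotated ends and not mapped start sites.

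The summit of highest signal, at 3R:21373593-21373593, lay in an intron of the main gene, 3808 bp downstream of the common 5′ end. It was 18 bp upstream of position 21373575, where the minus-strand precursors N, O and AA begin. Its signal was 286 in the pooled list (rank 940), 173 in replicate 1 (rank 850) and 114 in replicate 2 (rank 1169). Its replicate 1 summit was at the same base and its replicate 2 summit 20 bp away. The 100 bases upstream of this 5′ end are shown because the pooled summit falls inside them. They are on the minus strand at 3R:21373576-21373675, from the RefSeq Release 6 assembly. Capitals mark matches to GTTGCCA, a 7-base word that was picked out after these sequences had been read.

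upstream of the N, O and AA precursors: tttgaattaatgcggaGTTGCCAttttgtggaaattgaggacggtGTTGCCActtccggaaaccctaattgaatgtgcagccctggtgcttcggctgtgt

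The word occurs 2 times in this stretch. It or its reverse complement TGGCAAC was within 50 bp of 1 of the 3 mod(mdg4) IDR summits, this one. Of the 2 copies shown, only the second is that close. Read on both strands, the window of this summit holds 2 copies, so the other lies outside the stretch shown. Over all 2886 IDR summits the share was 3.98%, and over the same 101 bp windows at the 19252 annotated 5′ ends of protein-coding genes it was 4.16%.

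The summit at 3R:21365479-21365479 lay 11922 bp downstream of the common 5′ end, at a place where precursors start in both directions. Its position is 9 bp inside the first exon of the minus-strand precursor E, which begins at 21365488, and 189 bp upstream of a further minus-strand 5′ end of precursors C, AB and E. On the plus strand, precursors U, V, W, X, Y, AD and AE begin at 21365609, so the summit is 130 bp upstream of them. Together these 3 ends account for 21 of the 48 precursor transcripts. Its signal was 208 in the pooled list (rank 1385), 88.0 in replicate 1 (rank 2156) and 114 in replicate 2 (rank 1194), with the replicate summits 3 bp and 6 bp away.

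Of the 3 IDR summits of mod(mdg4), this one carries GGAACG, whose reverse complement is CGTTCC. The first sequence shows the summit and 14 bases to each side, on the minus strand at 3R:21365465-21365493, with GGAACG in capitals. The second shows the whole 120 bp gap between the divergent 5′ ends, on the minus strand at 3R:21365489-21365608, with the match to GTTGCCA in capitals. This match lies more than 100 bp from the summit. No annotated exon covers the gap.

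summit in pre-mod(mdg4)-E: ttttctaacacGGAACGagctgtttgcat

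gap between divergent precursor 5′ ends: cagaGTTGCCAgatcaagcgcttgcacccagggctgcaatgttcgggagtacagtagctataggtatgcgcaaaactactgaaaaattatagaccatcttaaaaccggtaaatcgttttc

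GGAACG on either strand was within 50 bp of 1 of the 3 IDR summits of mod(mdg4) and 0 of the 1 of lola, against 14.7% of all IDR summits. With so few summits this is a description of each. In the windows at annotated 5′ ends of protein-coding genes the share was 3.17%, and at pooled summits outside the IDR list 3.22%. GGAACG was found in earlier work on these same data, so its higher share over all IDR summits is not independent evidence. None of the lower pooled summits of the loci, 4 at mod(mdg4) and 22 at lola, had a match. A match in this window does not show that the factor contacts those bases.

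The summit at 3R:21376493-21376493 was the only IDR summit of mod(mdg4) near the common exons. It lay in the intron between the third and the fourth common exon, 109 bp past the end of the third. Its signal was 231 in the pooled list (rank 1220), 122 in replicate 1 (rank 1312) and 120 in replicate 2 (rank 1110), with replicate summits 12 bp and 49 bp away. Of the 3, it had the closest signals in the replicates. No 5′ end of another gene lay within 1 kb of any of the 3. The window 50 bp to each side, on the minus strand at 3R:21376443-21376543, is shown because the pooled summit falls in an inverted repeat. Capitals mark its arms.

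summit in the third common intron: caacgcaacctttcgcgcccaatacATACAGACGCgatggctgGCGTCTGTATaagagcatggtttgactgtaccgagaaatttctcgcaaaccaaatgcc

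The arms are 10 bp long, separated by 8 bp, and the centre of the repeat is 11.5 bp from the summit. The repeat was noticed on reading the sequence. Windows with perfect arms of at least 8 bp and at most 20 bp between them made up 1 of the 3 IDR summits of mod(mdg4), 0 of the 1 of lola and 6.1% of all IDR summits. Arms of at least 10 bp were in 27 windows, 0.936% of all IDR summits, against 0.54% of the windows at annotated 5′ ends.

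**Figure D1:**
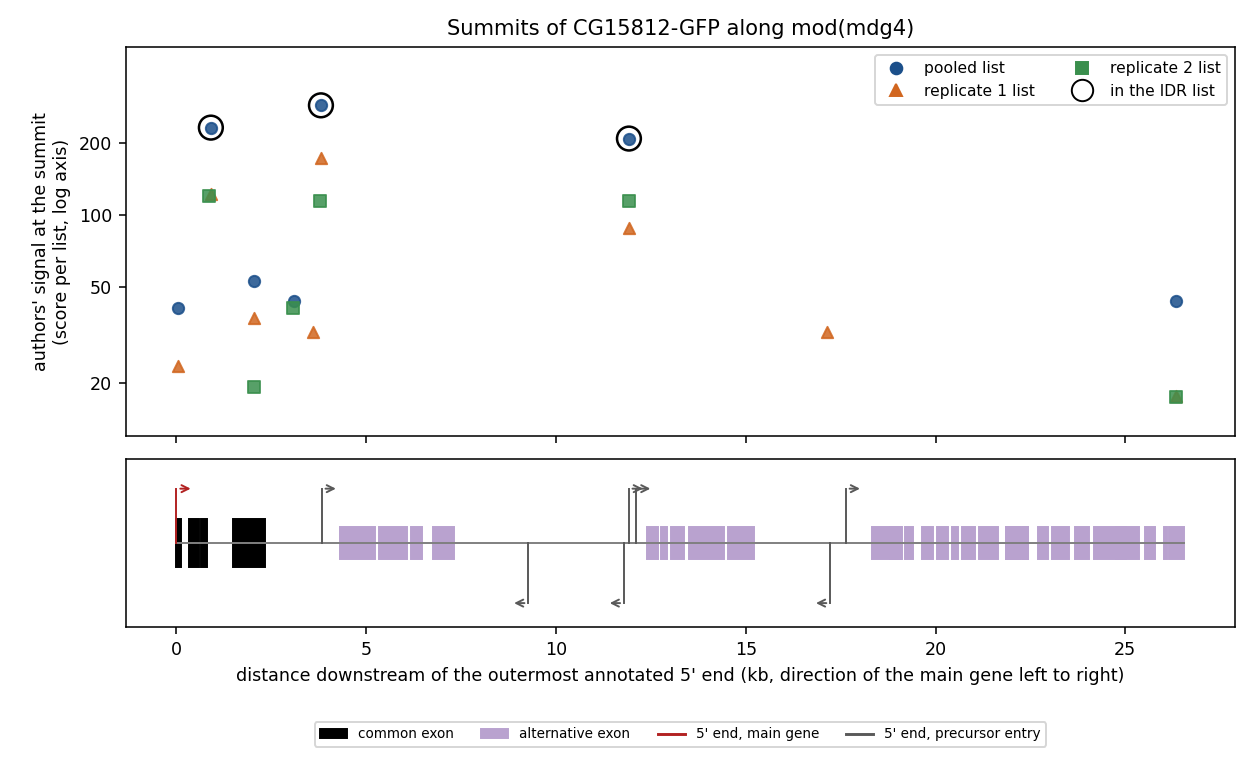
Authors' signal (log axis, score per list) at each summit along mod(mdg4), against the distance in kb from the common 5′ end, with the exons and annotated 5′ ends drawn to scale below; arrows give the direction of each 5′ end and rings mark the IDR list. The 3 ringed summits have pooled signals of 208 to 286, and the other 4 pooled summits have 41.1 to 53.2.

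The common 5′ end at 21377401, from which all 22 transcripts of the main gene begin, had a summit 42 bp downstream in the first exon. Its signal was 41.1 in the pooled list (rank 15871) and 23.5 in replicate 1 (rank 16486), and replicate 2 had no summit within 200 bp. The −log10 q-value was 0.93 in the pooled list, against 3.95, the highest value that list holds, at each of the 3 IDR summits. A summit in the fourth and longest common exon, of 853 bp, had a pooled signal of 53.2. The remaining pooled summits were one of 43.9 in the intron downstream of that exon, seen within 200 bp in replicate 2 only, and one of 44.0 in the last alternative exon. No pooled summit lay in the 14.4 kb between 21351061 and 21365479, which holds 23 of the 28 alternative exons. The replicate lists had 8 summits at the locus in replicate 1 and 6 in replicate 2. Replicate 1 had a summit of signal 32.5 in that stretch (rank 10365), 97 bp downstream of the 5′ end of the plus-strand precursors T and Z.

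Precursor 5′ ends differed among themselves. Of the 7, 4 had a pooled summit within 200 bp, but 3 of these share the single summit at 21365479. The end at 21359768, where 17 transcripts of 8 minus-strand precursors begin, had no summit within 200 bp in any list. The same held for the end at 21368129, used by 2 further transcripts of precursors U and V.

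The gene lola (FBgn0283521) occupies 2R:10481894-10543291 on the minus strand, 61.4 kb with its precursor entry. It has 24 transcripts that begin at 4 positions, at 10543291 (2 transcripts), 10541670 (8), 10535032 (11) and 10534354 (3). The precursor entry, pre-lola-G, begins at 10485252 near the 3′ end of the locus. The 4 common exons make up 2.58% of the locus, 29 alternative exons 38.0%, exons of the precursor alone 2.14% and intron 57.3%.

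The IDR summit of lola was at 2R:10535006-10535006, in the first exon of those 11 transcripts. That exon counts as alternative here, because fewer than 50% of the transcripts use it. The signal was 134 in the pooled list (rank 2672 of the 2886 in the IDR list), 115 in replicate 1 (rank 1418) and 33.0 in replicate 2 (rank 8475). Replicate 1 had its summit at the same base, whereas the nearest summit of replicate 2 was 87 bp away, on the other side of the 5′ end. The summit is therefore high in one replicate and far lower in the other. Taking the 2886 regions of highest signal of a single replicate in place of the IDR list gave 0 summits at lola with replicate 2 alone and 2 with replicate 1 alone. The second of those in replicate 1 had signal 76.1 (rank 2758), in the intron 1019 bp downstream of the 5′ end at 10541670.

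Below the IDR list, the other 3 annotated 5′ ends of the main entry of lola had pooled summits within 200 bp. A pooled summit of signal 119 (rank 3233) lay 35 bp downstream of the 5′ end at 10541670, with 74.0 in replicate 1 and 41.6 in replicate 2. It was also 40 bp downstream of the start of asRNA:CR45135, an antisense RNA on the plus strand, so the position does not tell these starts apart. A pooled summit of signal 113 (rank 3514) lay 1 bp upstream of the 5′ end at 10534354, with 54.4 in replicate 1 and 56.5 in replicate 2. The outermost 5′ end, at 10543291, had a summit of signal 66.2 (rank 7868) at 161 bp upstream, with 33.1 in replicate 1 and 25.4 in replicate 2. At each of these 3 ends both replicates had a summit within 200 bp. All 3 signals are under the 128 at which the IDR list begins.

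Pre-lola-G had no pooled summit within 200 bp of its 5′ end. Replicate 2 had one of signal 23.4 at 117 bp downstream, and a pooled summit of signal 66.3 lay 360 bp upstream, seen within 200 bp in replicate 1 only. The precursor 5′ ends of mod(mdg4) with IDR summits had no counterpart at lola in the IDR list.

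**Figure D2:**
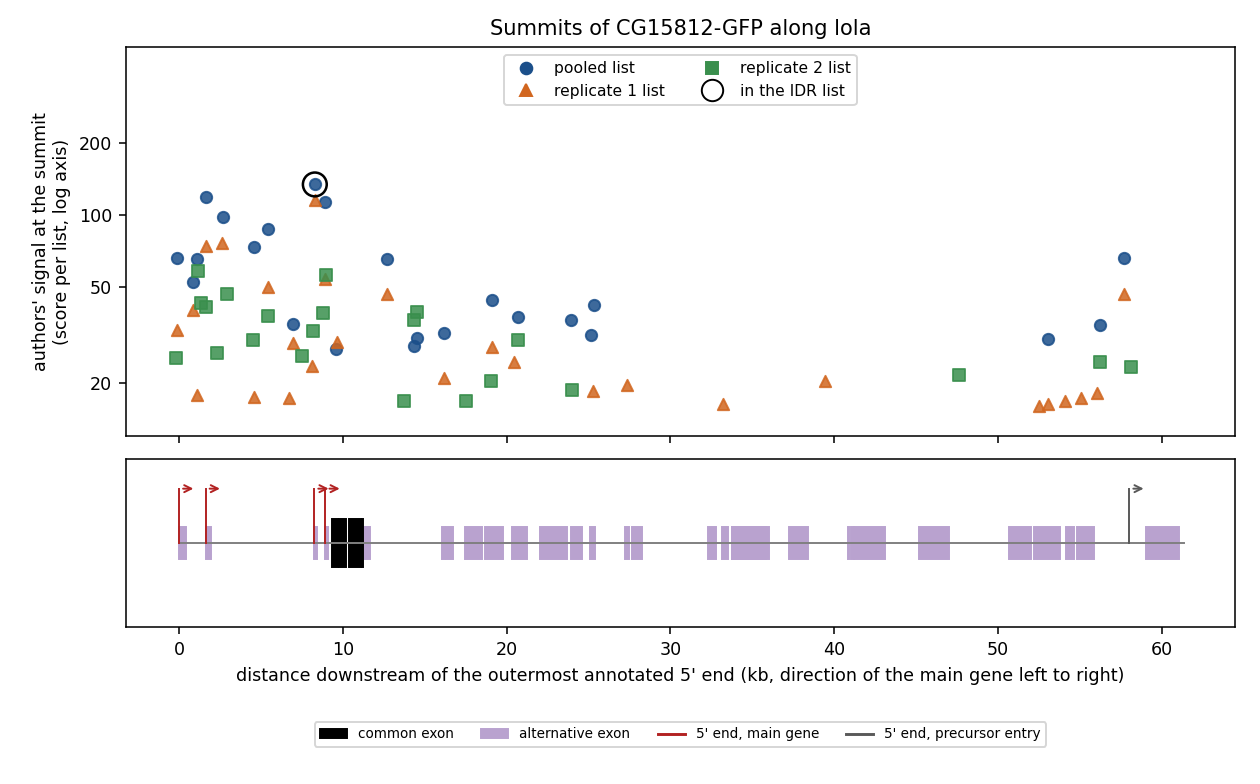
Authors' signal (log axis, score per list) at each summit along lola, against the distance in kb from the outermost 5′ end, with exons and 5′ ends to scale below; the ring marks the IDR list. The pooled summits at the 3 inner 5′ ends of the main gene have 113 to 134, and the other pooled summits are at most 98.5.

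In the relaxed pooled list lola had 23 summits. The 3 within 50 bp of an annotated 5′ end had signals of 113 to 134, with a median of 119, and the 20 farther away had 27.6 to 98.5, with a median of 40.0. These ranges did not overlap in the pooled list, but those of each replicate list did. In replicate 1 a lola summit 1019 bp from a 5′ end had 76.1, against 54.4 to 115 within 50 bp. In replicate 2 one at 495 bp had 58.6, against 41.6 and 56.5 within 50 bp. At mod(mdg4) the pooled ranges overlapped. The 3 pooled summits within 50 bp of a 5′ end had 41.1 to 286, and the 4 farther away had 43.9 to 231. The same ranges over all pooled summits are not given here. By placement, 13 of the 23 lola summits lay in introns, 8 in alternative exons, 1 in a common exon and 1 upstream of the gene. The intron share of 56.5% and the alternative exon share of 34.8% were near the 57.3% and 38.0% of the locus length. The common exon summit had the lowest signal, 27.6. The highest summits away from the 5′ ends of lola were in the introns upstream of the common exons, with 98.5 at 10540620, 87.3 at 10537878 and 73.4 at 10538728. The first of these is 975 bp upstream of the start of asRNA:CR45135, and replicate 2 had no summit within 200 bp of it. The second is within 1 kb of snoRNA:lola-b, snoRNA:lola-c and snoRNA:lola-d, small nucleolar RNAs, which guide RNA modification, hosted in that intron. The replicate lists had 27 summits at lola in replicate 1 and 22 in replicate 2. The highest in replicate 1 was the one of the IDR list, with 115. The highest in replicate 2, with 58.6 (rank 3130), lay in an intron 495 bp upstream of the 5′ end at 10541670, where replicate 1 had 17.8. Across the alternative 3′ exons, no pooled summit lay in the 27.7 kb between 10490241 and 10517926, which holds 12 of the 29 alternative exons. Apart from a replicate 1 summit that matches the pooled one at its edge, replicate 1 had 4 summits in that stretch, of signal 16.0 to 20.3, and replicate 2 had 1, of 21.5.

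The 7 pooled summits of mod(mdg4) make 2.64 per 10 kb and the 23 of lola 3.75 per 10 kb, against 2.24 per 10 kb over the chromosome arms. For the loci, all summits kept under the rule were divided by locus length, and the 23 include 1 upstream of lola. In the IDR list the densities were 1.13 per 10 kb at mod(mdg4) and 0.163 at lola, against 0.216 over the arms. The relaxed and the IDR list order the 2 loci differently. A summit of both replicates lay within 200 bp of 5 of the 7 pooled summits at mod(mdg4) and of 9 of the 23 at lola, against 50.6% of all pooled summits. The remaining 2 at mod(mdg4) and 14 at lola were matched in one replicate.

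**Figure D3:**
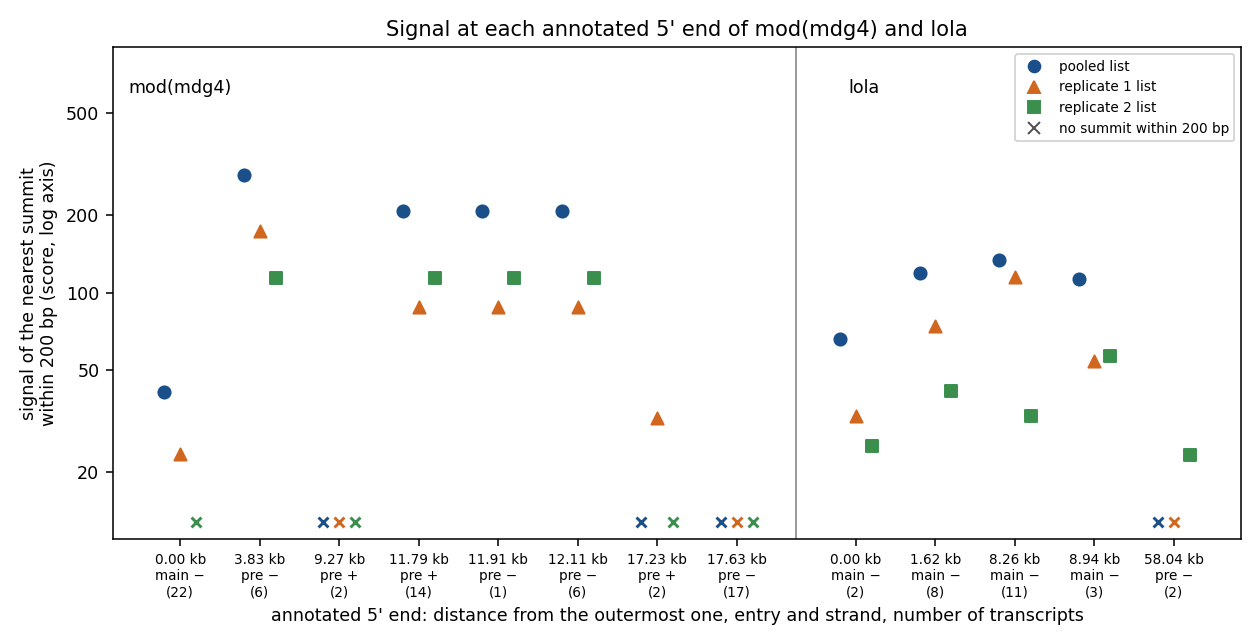
Signal (log axis) of the summit nearest to each annotated 5′ end of mod(mdg4) and lola, within 200 bp, in the pooled and the replicate lists; crosses mark ends with no such summit, and numbers in brackets are annotated transcripts. The 3 ends of mod(mdg4) at 11.79 to 12.11 kb share one summit of pooled signal 208, while the common end has 41.1.

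At mod(mdg4) 2 of the 3 IDR summits and at lola the 1 IDR summit lay within 50 bp of an annotated 5′ end, against 24.8% of all IDR summits. Of the pooled summits outside the IDR list, 1 of 4 at mod(mdg4) and 2 of 22 at lola were that close, against 9.84% of all such summits. The lola count of lower summits is near that background. Both loci had IDR summits at inner 5′ ends and none within 200 bp of the outermost one. Among the 411 loci with 5′ ends at least 1 kb apart and an IDR summit within 200 bp of one of them, 44.8% had none at the outermost, so the pattern is common.

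An IDR summit in the gene body or within 1 kb of a 5′ end was found at both loci and at 17.8% of all protein-coding loci. The count of 3 or more, which mod(mdg4) reached and lola did not, was found at 1.24%. These shares do not allow for the length of mod(mdg4) or for its 8 annotated 5′ ends. With its precursors it has 70 annotated transcripts, the second highest number of any protein-coding locus. By its highest IDR signal mod(mdg4) was number 870 and lola number 2328 of the 2477 loci with an IDR summit, whose median was 212. Loci with the most IDR summits were brat, a translational repressor, with 19 and crp, a bHLH factor gene, with 16. Next came rdx, a BTB adaptor of a ubiquitin ligase, with 13, sgg, the GSK3 kinase, with 11, and tou, a chromatin remodelling gene, with 11. Their highest signals were 3737 to 31565, far above those of both loci.

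Replicate agreement differed among the 4 IDR summits, and the 1 at lola cannot stand for its locus. The log2 signal of replicate 1 over replicate 2 was 0.60 at 21373593, 0.02 at 21376493 and −0.37 at 21365479 of mod(mdg4), and 1.80 at the lola summit. Over the 2860 IDR peaks with a summit of both replicates within 200 bp, the median was 0.21 with an SD of 0.54. None of the 3 summits of mod(mdg4) but the 1 of lola differed by more than 1, against 8.46% of these peaks. A difference at least as large as that of lola was found at 25 peaks, 0.874%. Replicate 2 has a separate summit on the other side of this 5′ end, and the match to it enters this value. At the lower pooled summits of lola matched in both replicates, the log2 ratio ran from −1.72 at 10542184 to 0.83 at 10541635. Both samples share 1 control alignment, so their agreement is not fully independent.

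**Figure D4:**
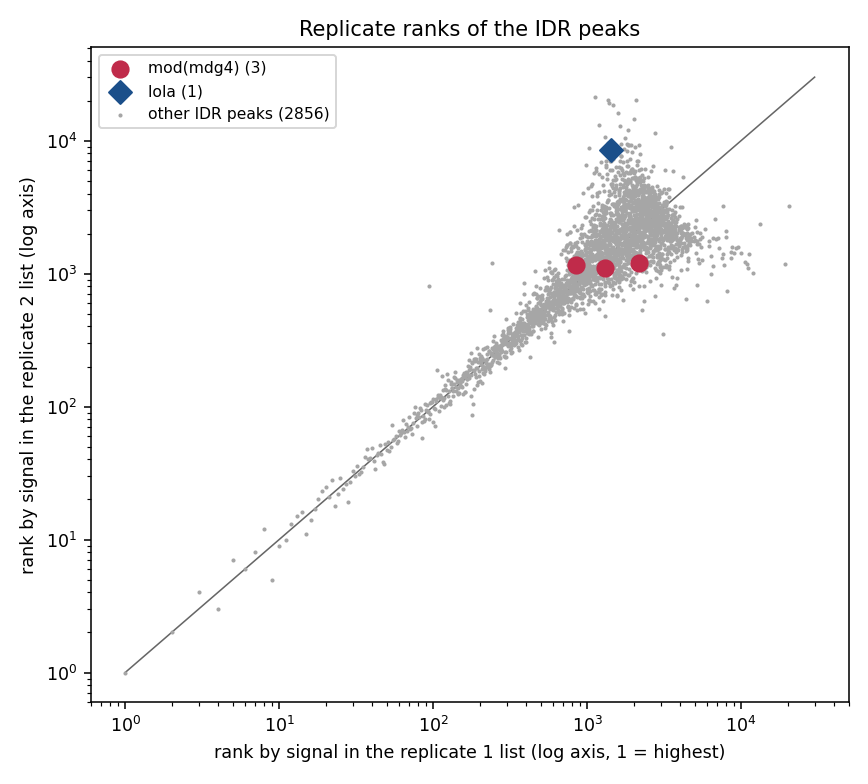
Rank by signal in the replicate 1 list (x, log axis) and the replicate 2 list (y, log axis) for IDR peaks with a summit of both replicates within 200 bp; large symbols are the 3 summits of mod(mdg4) and the 1 of lola, grey points the other peaks, and the line marks equal ranks. The mod(mdg4) summits rank 850 to 2156 in replicate 1 and 1110 to 1194 in replicate 2, and the lola summit ranks 1418 and 8475.

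Short words known from other factors were counted at the same summits. GAGAG, bound by GAGA factor, CGATA, part of the element bound by BEAF-32 and DREF, and GGTCACAC, the core of the element bound by M1BP, were each within 50 bp of 0 of the 4 IDR summits of the 2 loci. Within 100 bp, GAGAG was at 2 of the 4, the intron summit 21376493 of mod(mdg4) and the lola summit. CGATA was within 100 bp of 1, the same intron summit. Shares of all IDR summits within 100 bp are not given here, so these counts cannot be read against the 50 bp shares. Over all IDR summits the shares within 50 bp were 19.0%, 19.1% and 1.94%, each read on both strands. At the 22 lower pooled summits of lola, GAGAG was near 6 and CGATA near 2, against 15.0% each of all pooled summits outside the IDR list. The 2 with CGATA were those at the 5′ ends at 10534354 and 10543291. Base composition varied among the 4 IDR summits, and the 1 at lola cannot stand for a difference between the loci. Within 50 bp of the summit the GC share was 32.7%, 48.5% and 49.5% at mod(mdg4), from the 3′ to the 5′ side of the gene, and 56.4% at lola. The median over all IDR summits was 44.6%.

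Mod(mdg4) and lola were set beside 2 lists of genes related by function. Of 22 BTB factor genes, 10 had an IDR summit within 1 kb of a 5′ end, against 15.9% of all protein-coding loci. By highest pooled signal near a 5′ end they were CG15812 itself with 1783, CG6118 with 359, mod(mdg4) with 286, Trl with 266 and CG12236 with 261. They went on with CG8924 at 231, ken at 160, ttk at 139, lola at 134 and lolal at 130. Trl encodes GAGA factor, ken and ttk encode zinc finger repressors, and lolal encodes a short BTB protein that binds GAGA factor. Their matched replicate signals ran from 59.4 (lolal) to 921 (CG15812) in replicate 1 and from 33.0 (lola) to 885 (CG15812) in replicate 2. The lowest matched value of the 10 in replicate 2 was thus that of lola. It belongs to the summit matched to 10535006 alone. Replicate 2 also had a summit of 58.6 at 495 bp from another 5′ end of lola. The other 12 had none in the IDR list within 1 kb of a 5′ end, 11 of them with a lower pooled summit there. The 10 with one include CG15812, the tagged gene, and mod(mdg4) and lola themselves. Whether the tag adds to the signal at CG15812 was not tested.

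Of 16 insulator partner genes, 6 had an IDR summit within 1 kb of a 5′ end, read against the same 15.9%. By highest pooled signal these were Chro with 353, Cp190 with 307, mod(mdg4) with 286, Trl with 266, BEAF-32 with 156 and CTCF with 141. Cp190 and Chro encode architectural cofactors, and BEAF-32 and CTCF encode DNA-binding insulator proteins. Su(Hw), the partner of Mod(mdg4) at the gypsy insulator, is encoded by su(Hw), whose highest pooled summit there had 34.6 (rank 20413) and no summit of replicate 2 within 200 bp. The other 9 genes without an IDR summit near a 5′ end had at most 83.1 or no pooled summit there. Mod(mdg4) and Trl are on both lists, so the counts are not independent, and both lists were written with earlier results of these data known. Neither count allows for the length of the genes or for their number of annotated 5′ ends.

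**Figure D5:**
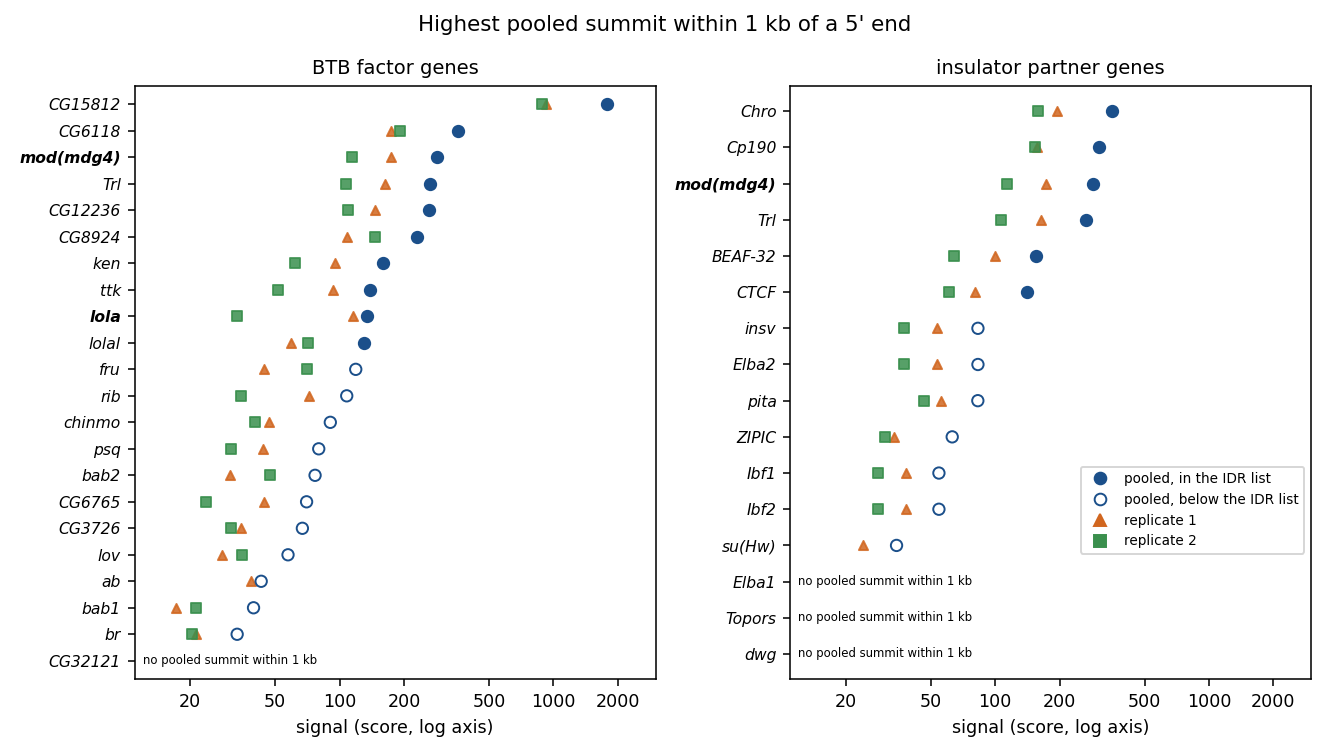
Highest pooled signal (log axis) within 1 kb of a 5′ end for each of 22 BTB factor genes and 16 insulator partner genes, with the matched replicate summits; filled circles are in the IDR list. CG15812, the tagged gene, has the highest pooled value, 1783, and mod(mdg4) has 286 and lola 134.

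The genes next to the loci had summits within 1 kb of their own 5′ ends. Beyond the 3′ end of mod(mdg4) lies aus, with 2 IDR summits near its 5′ end at 21349601. The one 13 bp downstream of it had signal 150 in the pooled list, 113 in replicate 1 and 47.5 in replicate 2. The other, 612 bp upstream of aus and 633 bp beyond the 3′ end of mod(mdg4), had 263 in the pooled list, 170 in replicate 1 and 93.5 in replicate 2. It falls outside the rule for mod(mdg4), and its pooled signal is within the range of the 3 summits there. On the 5′ side, tin, an NK homeobox gene of heart development, had a summit of 108 below the IDR list, 206 bp upstream of its 5′ end. Next to lola, the divergent genes Pef and trsn, which encodes translin, share 1 IDR summit with a pooled signal of 149, and 68.3 in replicate 1 and 73.8 in replicate 2. It lies 25 bp upstream of Pef and 27 bp upstream of trsn. On the other side of lola, lncRNA:acal, a long non-coding RNA gene, had a summit of 121 below the IDR list.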

How the data were processed

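ChIP-seq of CG15812-GFP was measured in 2 samples of whole embryos, biological replicates of 1 group. Per the labels, chromatin was sonicated to 200 to 800 bp and the build is dm6. Per the notes deposited with the files, each replicate list and the pooled list were called against 1 shared control alignment. Not given in the sources used here are the aligner, the peak caller, the IDR threshold and the read depth. For each region the authors deposited a signal score, a −log10 q-value, which has a ceiling in each list, and another value, the summit offset in bp. No columns of other samples were present (0).

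Summits on 2L, 2R, 3L, 3R, X and 4 were placed against Ensembl release 115 (BDGP6.54, dm6 coordinates). The 1 to 3 regions per relaxed list on other sequences were left out. Positions are 1-based. Precursor entries were merged into their gene. Replicate summits were matched within 200 bp, and words were counted on both strands within 50 bp of a summit in the RefSeq Release 6 genome. Scripts in Python 3.11.15 with pandas 2.3.3 and numpy 2.4.6 were checked on made-up summits. No test was run, since there is 1 group: counts stand beside the same count over all loci or summits.

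Named are the members, genes with a 5′ end within 1 kb of a described summit, list members with an IDR summit, the neighbours, and the 5 genes with the most IDR summits. The 2 loci and the lists were chosen with earlier results of these data known. GTTGCCA, the inverted repeat and su(Hw) were picked after their values were seen. GGAACG came from earlier work on these same data. Alternatives were a 500 bp distance, the 50% of IDR peaks with the highest signal, 15000 pooled regions, single replicates, region overlap, the main entry alone, a 100 bp match or window, and ranks.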

Additional observations from a re-analysis of the deposited data

How the results depend on the processing

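The 3 IDR summits of mod(mdg4) were 3 under every alternative run. The 1 of lola became 0 with the 50% of IDR peaks of highest signal, and 0 to 2 with a single replicate. The share of BTB factor genes with an IDR summit near a 5′ end was 45.5%, and 27.3% with that 50%, beside 8.18% of all protein-coding loci. The 23 pooled summits of lola became 12 among the 15000 pooled regions of highest signal. With log2 ranks in place of log2 signals, the median replicate difference at mod(mdg4) was −0.24 in place of 0.02 and that at lola 2.58 in place of 1.80; the cause was not tested. Depth is unknown, so a region absent from a list may lie below its cut-off. No paired analysis was possible because the 2 samples form 1 group.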
